A study of Caenorhabditis elegans with 9 samples.

Results

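RNA of whole young adult Caenorhabditis elegans was compared between emr-1(gk119) animals (strain BN20), which carry a deletion allele of the emerin gene, and wild-type animals of strain N2. The comparison used the 2 libraries labelled emr-1(gk119) and the 3 labelled wild type, 5 of the 9 libraries of the series, and took every row of the expression table with a mean coverage of at least 1. These were 24939 of 49395 transcripts, or 19567 of 43901 genes. The other 4 libraries were 2 of lem-2(tm1582) (strain BN19) and 2 of lem-2(tm1582) animals fed emr-1 RNAi bacteria. These 4 served to estimate the spread between replicates and counted in the mean coverage. The lem-2(tm1582) pair was also compared with emr-1(gk119) directly. Each culture held about 40000 synchronized worms, kept for 53 h at 20 °C in 50 mL, with RNAi bacteria as food and IPTG at 1 mM, until non-gravid young adults prevailed, and the sources used here do not spell out which bacteria each genotype ate. Coverage is the authors' quantile-normalized median read depth over the exons of a transcript, so no read counts or library depths stand behind a value. Each genotype was 1 strain, and the labels number the libraries as replicates without saying that they were separate cultures, so p-values measure the spread between these libraries.

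Emerin is a small protein of the inner nuclear membrane. Through its LEM domain it binds the chromatin protein BAF-1, and with lamin and LEM-2 it tethers chromatin to the nuclear periphery, where genes are often silent. In people, loss of emerin causes Emery-Dreifuss muscular dystrophy, while worms that lack emerin alone are viable because LEM-2 covers much of the shared function.

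Wild-type libraries resembled each other more than they resembled emr-1(gk119). For the 8110 genes whose mean coverage reached 20, absolute log2 differences had a median of 0.204 to 0.305 within wild type, 0.382 for the emr-1(gk119) pair and 0.451 to 0.536 across these genotypes. Distances of the emr-1(gk119) libraries to those labelled lem-2(tm1582) were 0.322 to 0.426, so replicate 2 lay closer to lem-2(tm1582) replicate 1 than to its own partner. The coverage below which 75% of all rows lay was 12.06 to 12.67 in wild type and 13.56 to 14.44 in emr-1(gk119).

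The deleted gene was checked first. emr-1 (chromosome I, 1842445 to 1843227 on the plus strand in WBcel235) had a coverage of 52.1, 44.6 and 60.5 in the wild-type libraries and of 0 and 1.5 in the emr-1(gk119) libraries. The mutant libraries were thus nearly empty over this gene, as their label says. On the scale of log2(coverage + 1), which is used for every change below and understates the change of genes of low coverage, the difference was -5.07 ± 0.41 (SE, adjusted p = 0.0012). lem-2, which encodes the second LEM-domain protein of the inner nuclear membrane, was at 32.2, 29.3 and 39 in wild type and at 16.111 and 23.8 in the mutant, a change of -0.73 ± 0.20 (adjusted p = 0.048). That call was lost without emr-1(gk119) replicate 1 (adjusted p = 0.16) and when only the 5 compared libraries were fitted (adjusted p = 0.14). In the libraries labelled lem-2(tm1582), lem-2 was at 54 and 53.3 and so was not lower than in wild type; coverage of the whole gene therefore does not check that label, and statements about these libraries rest on it. The pair labelled as lem-2(tm1582) with emr-1 RNAi enters the fits through the estimate of the spread and through the coverage minimum, a mean over 9 libraries. In that pair emr-1 was at 134.8 and 73.5 and was likewise not lower than in wild type.

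Loss of emr-1 was accompanied by change in both directions, with the largest rises in cuticle collagens, epidermal peptides and unnamed genes that were nearly silent in wild type, and the largest falls in emr-1 itself, yolk proteins and the genes T21H3.5, ZK813.2, spex-3 and C10G8.4. In the limma fit over 9 libraries, 2439 transcripts were higher and 1607 lower at a Benjamini-Hochberg adjusted p below 0.05, or 9.78% and 6.44% of those tested. Per gene, 2025 were higher (10.3%) and 1227 lower (6.27%), against a median change over all genes of 0.007. A fit on the 5 compared libraries alone, which has far fewer samples to estimate the spread, called 563 genes higher (2.88%) and 263 lower (1.34%), of which 552 and 242 were also called in the larger fit. On the log2 scale, 32.7% of the genes called higher rose by 2 or more, and 10.3% of those called lower fell by as much. In every fit that left out 1 of the 5 libraries, 660 of the higher and 236 of the lower genes were still called. Both emr-1(gk119) libraries lay above all wild-type libraries for 4333 of 19567 genes and below them for 3817, and every called gene was among these. A list of genes is described below by its calls in the 9-library fit, then in the 5-library fit, and its counts are to be read against these shares of all genes.

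**Figure D1:**
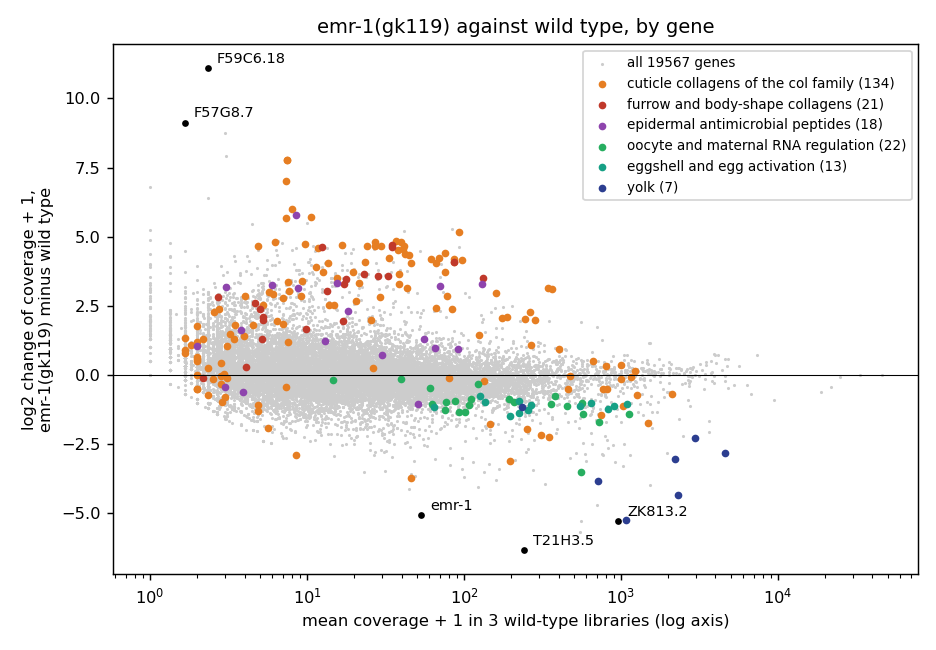
Each point is a gene, placed by its mean coverage plus 1 in the 3 wild-type libraries (log axis) and by its log2 change in emr-1(gk119) relative to wild type, with 6 gene lists in colour and 5 genes labelled. Yolk genes lie at high coverage with changes down to -5.25, and collagens rise by up to 7.77.

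The largest rise belonged to F59C6.18, a protein-coding gene of chromosome I (10516102 to 10516428), which was at 2, 1 and 1 in wild type and at 6222 and 4030 in emr-1(gk119). Its change was 11.10 ± 0.31 (adjusted p = 2.6e-05), and it was at 17.9 and 11.3 in the libraries labelled lem-2(tm1582). F57G8.7 was at 1, 1 and 0 against 1053 and 736, Y49G5A.1 at 2, 1 and 3 against 1714 and 895, and K03D3.2 at 1.5, 1.5 and 3.11 against 803 and 641. These genes went from the bottom of the coverage range to levels that only abundant messages reach. F58E2.2 was listed at 0 in all wild-type libraries and was at 113.5 and 104.7 in the mutant, so no fold is given. C36C5.14 was at 2, 1 and 1 against 157 and 231. The other 4 of the 10 largest rises were the collagens col-126, col-127, col-137 and col-180, described below. All 10 were called without any 1 of the 5 libraries, with an adjusted p of at most 0.025.

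Silence in wild type with clear expression in the mutant was the more common of the 2 extreme patterns. Coverage was at most 1 in all wild-type libraries and at least 10 in both emr-1(gk119) libraries for 17 genes, and the reverse held for 1. Besides F57G8.7 and F58E2.2, hpo-25 was listed at 0 in each wild-type library and was at 37.8 and 35.9, and T28A11.4 was listed at 0 against 41.7 and 19.3. Both genes were also at 0 in the 2 lem-2(tm1582) libraries. Of the 17 entries, 7 are annotated as piRNA loci of 21 bases on chromosome IV, such as 21ur-42 (1, 1 and 0 against 25.9 and 45.3) and 21ur-15692 (0, 1 and 0 against 29 and 37.9). Of these, 21ur-42 and 21ur-12304 lay inside col-137, and the others lay outside it within 1282 bases. No source says that reads were assigned by strand, so the coverage of the loci inside col-137 cannot be told from that of the collagen. For the loci outside col-137, the origin of the reads was not tested. The gene lost in the mutant was the pseudogene entry WBGene00022431 (chromosome X, 257329 to 260110), at 17.9, 26.8 and 21.9 against 1 and 1.

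**Figure D2:**
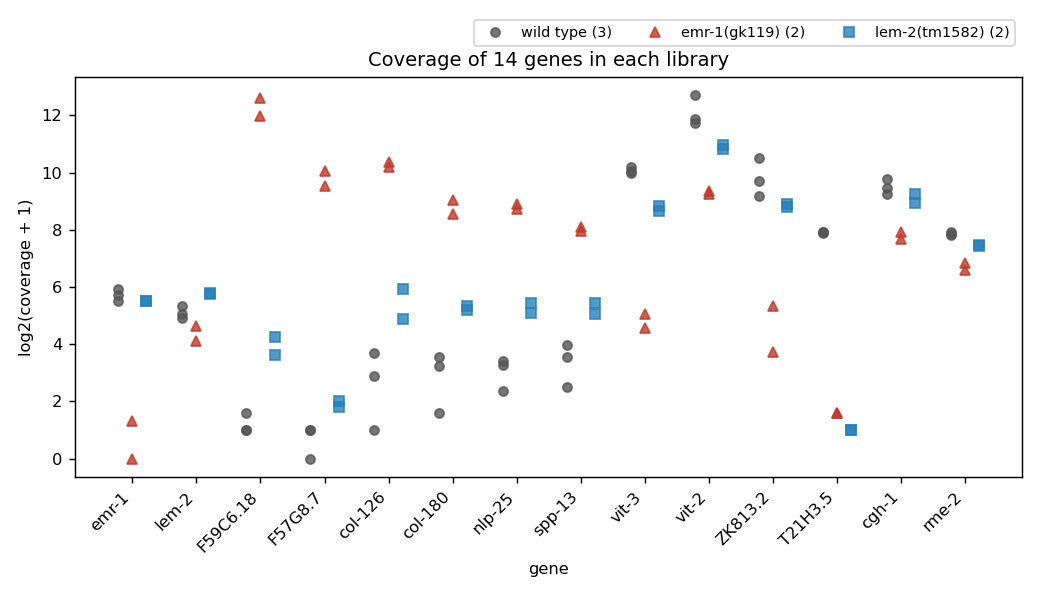
Points are log2(coverage + 1) of 14 genes in each wild-type (3), emr-1(gk119) (2) and lem-2(tm1582) (2) library. The emr-1(gk119) libraries stand apart from wild type for every gene shown, and T21H3.5 is equally low in lem-2(tm1582).

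Among the falls, T21H3.5 (chromosome V, 1158251 to 1164293) was at 233, 240 and 244 in wild type and at 2 and 2 in emr-1(gk119), a change of -6.32 ± 0.21 (adjusted p = 2.7e-05). It was at 1 and 1 in the libraries labelled lem-2(tm1582), so low coverage was shared by both mutants, and it overlaps T21H3.6, from which its reads may not be separable. ZK813.2 on chromosome X fell from 843, 579 and 1462 to 38.9 and 12.33, spex-3 from 745, 505 and 849 to 20.4 and 32.1, and C10G8.4 from 1329, 1550 and 1740 to 136.7 and 67.1. Each remained called when any 1 library was left out. The non-coding entries T27A10.8 and F59D8.3 were also among the 10 largest falls, but they overlap vit-3 and vit-4 on the opposite strand, and their reads cannot be told from those of the yolk genes.

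Yolk genes fell together and further than any other list. The vit genes encode vitellogenins, the yolk lipoproteins that the adult intestine makes and secretes, and rme-2 encodes the receptor through which oocytes take them up. All 7 members fell in the 9-library fit, in the 5-library fit and in every fit without 1 library, with a median change of -3.05. vit-3 was at 1051, 1005 and 1157 in wild type and at 32.5 and 22.5 in emr-1(gk119), a change of -5.25 ± 0.26 (adjusted p = 0.00016). vit-4 was at 2412, 2192 and 2320 against 109.8 and 116.1, and vit-1 at 847, 745 and 562 against 53.8 and 45.3. vit-2, at 3751, 3366 and 6678 against 649.9 and 600.3, changed by -2.81 ± 0.30. vit-5 changed by -3.05 ± 0.32 and vit-6 by -2.26 ± 0.20. The yolk receptor rme-2 fell less, from 243, 226 and 229 to 95.2 and 113.1. vit-3 and vit-4 are near-identical copies, as are other members of the family, so reads may have been split between them.

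Most oocyte genes were lower. Of 22 genes of oocyte and maternal RNA regulation, 17 fell and none rose (9 and 0 in the 5-library fit), with a median change of -1.02. Leaving out 1 library gave 10 to 14 lower, fewest without emr-1(gk119) replicate 1. cgh-1, a germline RNA helicase that protects maternal messages, was at 706, 866 and 611 in wild type and at 205.9 and 241.6 in the mutant (-1.69 ± 0.18, adjusted p = 0.0028). puf-5, a Pumilio-family repressor in oocytes, changed by -1.41 ± 0.13, as did the embryonic fate regulator pos-1 (-1.41 ± 0.17). oma-2, which acts in oocyte maturation, was at 100.6, 79.6 and 96.2 against 39.3 and 32.7. The members that did not pass included gld-2, gld-3, mbk-2 and rnp-8. spn-4 was at 399, 457 and 814 in wild type but at 3.89 and 437 in the 2 mutant libraries, so replicate 2 lay within the wild-type range and replicate 1 far below it.

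Eggshell and egg-activation genes followed, with 12 of 13 lower, none higher and a median change of -1.13 (5 in the 5-library fit). Both mutant libraries lay below all 3 wild-type libraries for all 13, against 3817 of 19567 over all genes. The eggshell layer genes perm-2 (205, 121 and 259 against 52.9 and 83) and perm-4 (228, 174 and 268 against 81.4 and 89.5) changed by -1.47 ± 0.36 and -1.36 ± 0.28. egg-2, a receptor-like protein of the egg surface needed for fertilization, went from 261, 242 and 262 to 117.4 and 94.6. The chondroitin proteoglycan gene cpg-3 had its mutant libraries further apart, at 517 and 241, against 793, 757 and 918 in wild type. Leaving out 1 library gave 6 to 10 lower, with 6 when either emr-1(gk119) library was absent. perm-2 and perm-4 were not called without replicate 1 (adjusted p = 0.16 and 0.092), nor cpg-3 without replicate 2 (adjusted p = 0.10).

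The remaining germline lists were lower by smaller amounts. Of 25 P granule and germline small RNA genes, 12 fell and 1 rose (4 and 0 in the 5-library fit, median -0.66). meg-1, a P granule component of the germline and embryo, was at 50.1, 54.6 and 66.4 against 17.8 and 19.3 (-1.56 ± 0.25), and pgl-3, a constitutive P granule protein, changed by -1.19 ± 0.18. The rise was that of alg-3, an Argonaute of the sperm-producing germ line, from 17.3, 17.4 and 12.06 to 24.6 and 33.8. Its call was lost whichever of the 5 libraries was left out. Of 26 DNA replication genes, 12 fell and none rose (3 and 0, median -0.66), led by the ribonucleotide reductase subunit rnr-2 (623, 635 and 725 against 327 and 267) and the replicative helicase subunit mcm-7 (173, 186 and 204 against 81.3 and 92.0). Both lists had fewest calls without emr-1(gk119) replicate 1, at 5 P granule and 4 replication genes. Among 53 genes of mitosis and the cell cycle 8 fell and none rose (median -0.40), with the B-type cyclin cyb-3 in front, from 429, 432 and 454 to 163.5 and 174.5, and 4 of the list were lower without wild type replicate 1. Of 21 genes of germline stem cells and fate 5 fell (median -0.52), among them lst-1, a target of Notch signalling that keeps germline stem cells, at 116.6, 104.3 and 113.3 against 45.1 and 59.9, and 2 of the list were lower in each fit without a wild-type library. Meiotic genes of synapsis and crossover stood apart from these: 1 of 30 fell, pch-2 (adjusted p = 0.047), and none rose. No gene of this list was called in a fit that left out a wild-type library. The list median was 0.00 in emr-1(gk119) replicate 1 and -0.49 in replicate 2.

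Apart from spermatogenesis genes, sperm lists had few calls in either direction. Changes were above 0 for 80% of spermatogenesis genes, 80% of sperm-specific family genes and 60% of major sperm proteins, against 50.4% of all genes. Of 30 spermatogenesis genes 6 rose and none fell (none in the 5-library fit, median 0.50), among them comp-1 (12.4, 13.5 and 12.5 against 35.3 and 23.8). comp-1 was not called without emr-1(gk119) replicate 1 (adjusted p = 0.14), and 2 members were called higher in that fit and without wild type replicate 3. Major sperm proteins had a median change of 0.03 with 1 of 30 called, msp-74. The msp-74 call was lost without wild type replicate 2, without wild type replicate 3 and without emr-1(gk119) replicate 2. Without wild type replicate 2, 1 gene of that list was called lower. Of 25 sperm-specific family genes (ssp, nspd and ssq) 2 fell and none rose, with a median of 0.26. These were ssp-37, at 36.8, 22.03 and 30.9 against 5.22 and 5.22, and ssp-19. Both calls were lost without wild type replicate 1 and without wild type replicate 3. Calls in this list, in both directions, also changed with the emr-1(gk119) library left out. The list median was 0.15 without emr-1(gk119) replicate 1 and 0.38 without replicate 2. In whole animals, fewer cells of a type and less RNA per cell cannot be told apart, which applies to every list named for a tissue. Early embryonic genes, which mark embryos held in the uterus, had 1 of 14 higher, 1 lower and a median of -0.12.

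**Figure D3:**
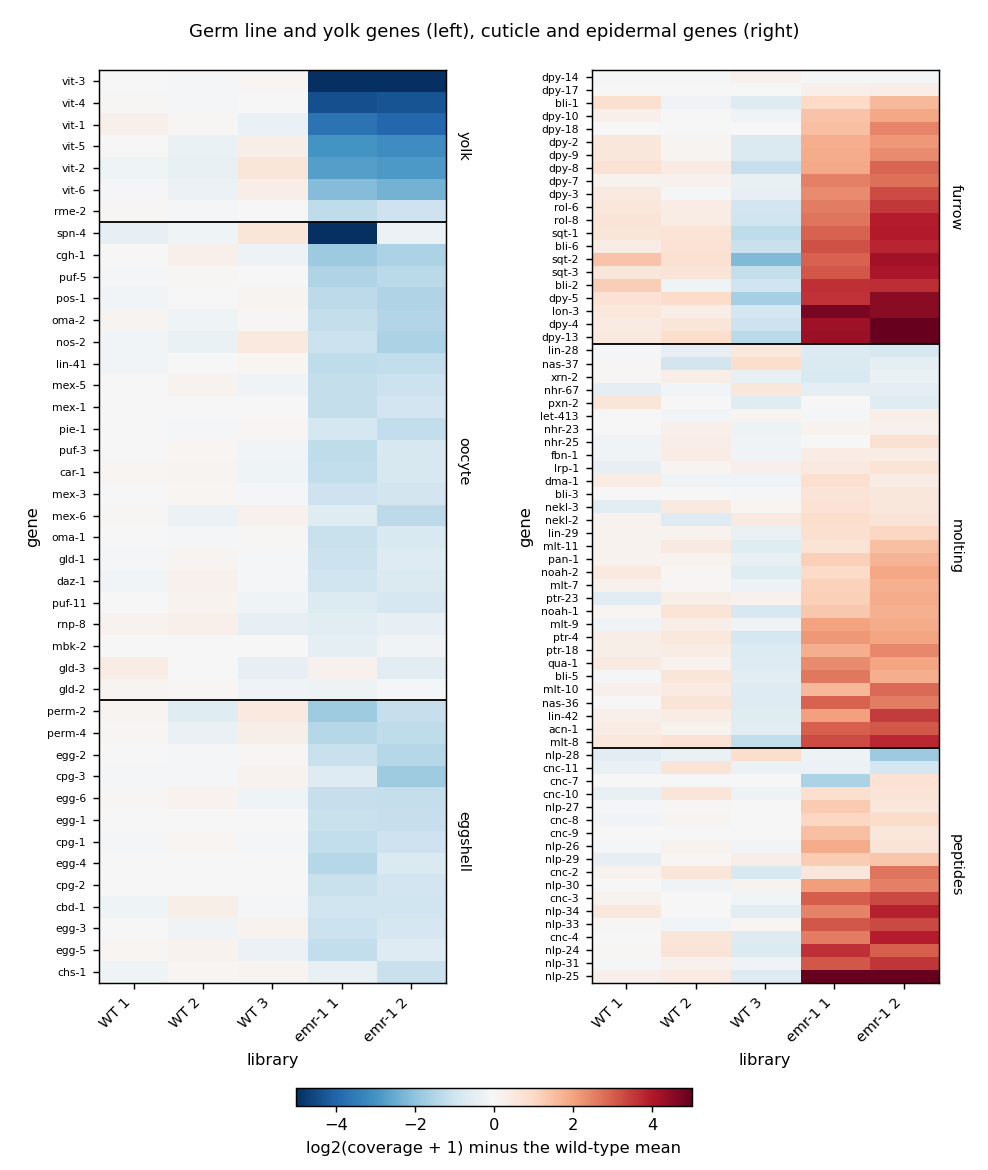
Colour gives log2(coverage + 1) minus the wild-type mean for each member of 6 gene lists in the 3 wild-type (WT) and 2 emr-1(gk119) libraries, on a scale cut at -5 and 5. Yolk, oocyte and eggshell genes are lower in both mutant libraries with few exceptions such as spn-4, and furrow collagens, molting genes and epidermal peptides are mostly higher, with wild type replicate 3 lowest among the wild-type libraries for many collagens.

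Cuticle collagens showed the opposite behaviour. The dpy, rol, sqt, bli and lon-3 genes encode collagens and collagen-processing enzymes that form the annular furrows and struts of the cuticle and set body shape, and they are made in pulses at each molt. Of 21 such genes 18 rose and none fell (5 and 0 in the 5-library fit), with a median change of 3.05. Both mutant libraries exceeded all wild-type libraries for 20 of them, against 4333 of 19567 over all genes. dpy-13 was at 39, 51.9 and 10.2 in wild type and at 567 and 982 in emr-1(gk119), a change of 4.70 ± 0.61 (adjusted p = 0.0048). dpy-4 was at 40.4, 46.8 and 14.4 against 584 and 1045, and dpy-5 at 111.9, 125.1 and 20.7 against 832 and 1550. lon-3 was at 15.6, 13.7 and 5.28 against 306.5 and 258.9. In these genes wild type replicate 3 was lower than its 2 partners, and emr-1(gk119) replicate 2 was higher than replicate 1 except for lon-3. Leaving out 1 library gave 8 to 19 higher, fewest without emr-1(gk119) replicate 2, where dpy-5 was not called (adjusted p = 0.075). The 3 members that did not pass were bli-1, dpy-14 and dpy-17.

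In the wider col family 82 of 134 tested genes rose and 17 fell (29 and 7 in the 5-library fit), with a median change of 2.04. Leaving out 1 library gave 58 to 81 higher and 10 to 12 lower. col-126 was at 11.9, 6.33 and 1 in wild type and at 1174 and 1335 in the mutant, a change of 7.77 ± 0.72 (adjusted p = 0.0018). Its neighbour col-127 had the same wild-type values and 1157 and 1334 in the mutant, and since these adjacent copies share reads they may count as 1 signal. col-137 was at 5.83, 12.22 and 1 against 675 and 809, and col-180 at 8.33, 10.7 and 2 against 377 and 525. All 4 were well above wild type in both mutant libraries. Chosen after their values were seen, col-135 and col-143 give the other side of the family. col-135 went from 48.2, 31.7 and 55.9 to 2.97 and 2, and col-143 from 182, 167 and 234 to 27.8 and 16.7, with changes of -3.71 ± 0.42 and -3.098 ± 0.28.

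Molting genes, which build, shed and degrade the cuticle between larval stages, were higher for 14 of 31 members with none lower (2 and 0 in the 5-library fit, median 1.11). mlt-8 was at 17, 19.3 and 4.22 against 117.3 and 166.9, and acn-1, a peptidase-like protein of the epidermis, at 9.78, 8.47 and 4.61 against 65.2 and 70.1 (3.05 ± 0.40, adjusted p = 0.0048). lin-42, the period homologue whose RNA cycles with the molts, was at 3.61, 3.91 and 1.5 against 14.8 and 42.8, and the astacin protease gene nas-36 at 3.67, 6.44 and 2 against 35.7 and 26.7. Molting transcription factors nhr-23 and nhr-25 did not pass. Leaving out 1 library gave 5 to 13 molting genes higher, fewest without emr-1(gk119) replicate 2, where mlt-8 was not called (adjusted p = 0.055), and nas-36 was not called without replicate 1 (adjusted p = 0.051). Hedgehog-related and patched-related genes, many of which act in the epidermis and in molting, had 32 of 76 higher and 5 lower (8 and 3, median 0.56). grd-14 was at 75.9, 109.6 and 25.5 against 1027 and 930 (4.01 ± 0.53), grl-16 at 15.7, 24.9 and 6.33 against 147.5 and 280.2, and wrt-10 at 11.9, 13.97 and 5.17 against 127.1 and 88.3. grl-15 changed by 3.42 ± 0.38. In fits that left out 1 library 14 to 25 were higher, again fewest without emr-1(gk119) replicate 2.

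Epidermal antimicrobial peptides of the nlp and cnc groups, which the skin makes on infection or wounding, rose for 12 of 18 tested members and fell for none (7 and 0 in the 5-library fit), with a median of 1.47 and at least 10 calls in each fit that left out a library. nlp-25 was at 8.61, 9.72 and 4.17 in wild type and at 475.5 and 422 in emr-1(gk119), a change of 5.79 ± 0.31 (adjusted p = 0.00022). nlp-31 was at 13.8, 17 and 12.5 against 130.8 and 182.6, nlp-24 at 123.8, 190.7 and 73.6 against 1508 and 957, and cnc-4 at 4.78, 7.56 and 2.61 against 32.3 and 85.7. Both mutant libraries were above all wild-type libraries for 14 of the 18, against 4333 of 19567 over all genes. The much larger group of lysozymes, saposin-like proteins and C-type lectins, many of them made in the intestine, moved both ways: 14 of 191 rose and 15 fell (8 and 4, median -0.07). Its largest changes were a rise of spp-13 from 14.6, 10.6 and 4.67 to 244.5 and 270.1 and a fall of clec-223 from 69.3, 50.9 and 72.2 to 11.4 and 4. The falls of this group were 5 without emr-1(gk119) replicate 2.

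Histone genes had 25 of 67 entries higher and 1 lower, a median change of 0.62 and 6 and 1 calls in the 5-library fit. Many entries are near-identical copies that share reads and even a name, so the count of entries is not a count of independent signals. An example is the 4 entries called his-51 in the annotation, of which WBGene00001925 and WBGene00001895 had equal values. For his-51 (WBGene00001925) coverage was 13.8, 18.3 and 4.22 against 71.9 and 78.7 (2.74 ± 0.54, adjusted p = 0.017, and 0.082 without emr-1(gk119) replicate 2). Only 1 histone entry was called higher without emr-1(gk119) replicate 2, 5 without replicate 1 and 10 to 17 without a wild-type library. Of 46 genes of histone methylation and chromatin 10 fell and 1 rose (1 and 0, median -0.37), with the demethylase lsd-1 at 11, 9.67 and 13 against 3.89 and 3 (-1.46 ± 0.22), and set-30 as the rise, from 14.7, 11.7 and 5.33 to 37.8 and 36.6. Among fits that left out 1 library, fewest of this list were lower without emr-1(gk119) replicate 1, where its median was -0.42. The set-30 call was lost when either emr-1(gk119) library was left out.

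Some genes of the nuclear envelope were lower besides emr-1. Of 14 lamina and LINC complex genes 3 fell and none rose (1 and 0 in the 5-library fit, median -0.42): emr-1, lem-2 and lem-4, which controls BAF-1 at mitotic exit. The call in the 5-library fit was that of emr-1, the deleted gene itself. Without wild type replicate 1 or 3, emr-1 was the only gene of the list called lower. lem-4 was at 35.1, 28.5 and 32.4 against 19.1 and 16.403 (-0.81 ± 0.21, adjusted p = 0.039, and 0.13 without emr-1(gk119) replicate 2). lmn-1, the only lamin of the worm, was at 136.1, 155.7 and 121.2 in wild type and at 129.4 and 106.9 in the mutant. Its change of -0.22 ± 0.15 did not pass (adjusted p = 0.38), with replicate 1 of the mutant within the wild-type range and replicate 2 below it. baf-1 was at 236.8, 284.2 and 195.4 against 424.9 and 220.9 and did not pass either. Of 26 nuclear pore genes 5 fell and none rose (3 and 0, median -0.38), led by npp-20, from 67.8, 59.7 and 69.2 to 25.3 and 29.3 (-1.23 ± 0.15, adjusted p = 0.0041), and 2 of the list were lower without wild type replicate 1.

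Muscle is the tissue affected in the human disease. Of 58 sarcomere and muscle attachment genes 9 rose and 1 fell, with none called in the 5-library fit and a median of 0.37. unc-82, a kinase of the sarcomere M-line, was at 6.24, 8.47 and 4.63 against 15.4 and 20.5 (1.37 ± 0.26), and unc-120, a transcription factor of body wall muscle, at 21.5, 22.1 and 18.9 against 55.2 and 37.3. tnt-2, a troponin T, changed by 1.02 ± 0.20. The body wall myosins unc-54 (234.9, 287 and 174 against 193 and 239) and myo-3 (11.9, 12.7 and 9.28 against 8.44 and 11.8) overlapped between the groups. Only 1 sarcomere gene was higher without emr-1(gk119) replicate 2, where unc-82 (adjusted p = 0.071) and tnt-2 (0.056) were not called, and unc-120 was not called without replicate 1 (0.15). Relative to wild type the list median was 0.31 and 0.53 in the emr-1(gk119) libraries and 0.64 and 0.46 in those labelled lem-2(tm1582). Of 21 genes of muscle calcium handling and the dystrophin complex 2 rose and 2 fell (none in the 5-library fit, median 0.25), and the dystrophin gene dys-1 was at 8.17, 9.58 and 7.22 against 9.44 and 16.6 and did not pass (adjusted p = 0.19).

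Medians of the neuronal lists lay between -0.06 and 0.15 in the 9-library fit. Of 37 genes of acetylcholine and GABA signalling at the neuromuscular junction 1 fell and none rose, and none was called in the 5-library fit. An unadjusted p below 0.05 in the 9-library fit was reached by 6 of them, against 6364 of 19567 over all genes. Their median of 0.11 turned to -0.09 when the rows were quantile-normalized again. The call was cam-1, a receptor kinase that also acts in cell migration, from 20.4, 25.4 and 23.9 to 11.4 and 16. It was lost in every fit that left out a wild-type library. The muscle acetylcholine receptor subunits unc-29, unc-38, unc-63 and lev-1 did not pass. Of 34 genes of synaptic vesicle release 2 fell, unc-11 (39.9, 43.03 and 40.01 against 18.6 and 26.8) and dyn-1, both of which act in endocytosis. Neither was called in any fit that left out a wild-type library. The median of the vesicle list was -0.06, and -0.20 after renewed quantile normalization. Both mutant libraries lay below all wild-type libraries for 11 of the 34, against 3817 of 19567 over all genes. They lay above them for 3, against 4333. Among 30 genes of G protein signalling at the synapse none passed limma's test in either fit, with 6 at an unadjusted p below 0.05 in the 9-library fit. Neuropeptides outside the epidermal group had 8 of 87 higher and 2 lower (median 0.10, none higher without emr-1(gk119) replicate 1), led by nlp-67 (3, 10.2 and 1.5 against 37.0 and 44.2, adjusted p = 0.013, and 0.071 without emr-1(gk119) replicate 2), and 4 of 74 potassium channel genes rose (median 0.15, but 0.00 after renewed quantile normalization), none of them without emr-1(gk119) replicate 1. None of these neuropeptide and channel genes was called in the 5-library fit.

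Metabolic and signalling genes gave scattered calls. fat-7, a stearoyl-CoA desaturase of the intestine, fell from 249.1, 234.7 and 95.6 to 36.8 and 29.4 (-2.40 ± 0.39, adjusted p = 0.0091, and 0.058 without emr-1(gk119) replicate 2), within an intestinal list of 34 that had 4 lower, 1 higher and a median of 0.02. Of 123 cytochrome P450 and UDP-glucuronosyltransferase genes 20 rose and 1 fell (3 and 0, median 0.26), led by ugt-4, from 3, 4.33 and 1 to 30 and 13.6, with 6 higher without emr-1(gk119) replicate 1, where ugt-4 was not called (adjusted p = 0.080). gst-10, a glutathione S-transferase, rose from 121.9, 114.5 and 64.9 to 783 and 750 (2.97 ± 0.28, adjusted p = 0.0019). Small heat shock protein gene hsp-12.6 fell from 42.6, 42.8 and 66.3 to 8.56 and 12.33 (adjusted p = 0.017, and 0.090 without emr-1(gk119) replicate 1), within a heat shock list of 35 with 3 higher and 3 lower. Among 35 insulin-like peptides 6 rose and 5 fell (2 and 0): ins-5 went from 2, 1 and 1.5 to 14.3 and 12.4 and ins-35 from 3.67, 4.72 and 3.5 to 19.0 and 20.9, while ins-8 went from 6.33, 4.33 and 4.17 to 0 and 1, a call lost without emr-1(gk119) replicate 1 (adjusted p = 0.056). Of 12 genes of the insulin pathway 4 fell, the receptor daf-2, pdk-1, akt-2 and the phosphatase daf-18. daf-18 was at 338.5, 391.3 and 355.4 against 183.1 and 155.2 (-1.09 ± 0.15, adjusted p = 0.0057), and it was the only one of the 4 still called in every fit that left out a library. Of 33 proteasome genes 6 fell and none rose in the 9-library fit, and none was called in the 5-library fit or without emr-1(gk119) replicate 1, wild type replicate 1 or wild type replicate 2, with 14 at an unadjusted p below 0.05 in the 9-library fit. Over all genes, 6364 of 19567 had an unadjusted p below 0.05 in the 9-library fit. Cytosolic ribosomal protein genes (1 of 78 called, median 0.16) and mitochondrial respiratory chain genes (2 of 43 called, median -0.03) had few calls. Changes were above 0 for 84.6% of the ribosomal protein genes, against 50.4% of all genes. Their median was -0.004 without wild type replicate 3. Large receptor and signalling families had scattered calls, with 12 of 206 nuclear hormone receptors higher and 7 lower, 10 of 220 serpentine chemoreceptors higher and 3 lower, and 15 of 287 F-box, MATH and BTB genes higher and 8 lower. In the fit without emr-1(gk119) replicate 1, these counts were 2 and 6, 6 and 4, and 3 and 12.

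**Figure D4:**
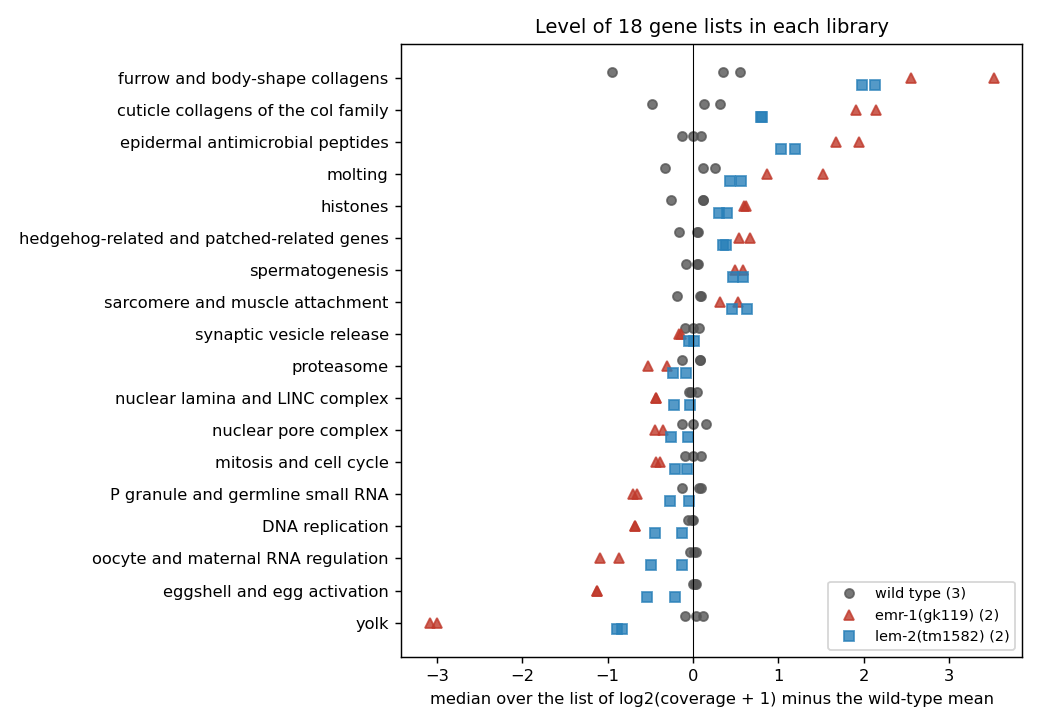
For 18 gene lists, points give the median over members of log2(coverage + 1) minus the wild-type mean, for the libraries of wild type (3), emr-1(gk119) (2) and lem-2(tm1582) (2). Furrow collagens range from 2.56 to 3.53 in emr-1(gk119), from 1.98 to 2.14 in lem-2(tm1582) and from -0.95 to 0.55 in wild type. Yolk genes lie near -3 in emr-1(gk119) only.

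The level of several lists in each library was set beside the stage of the animals, since collagen, molting and yolk RNAs are known to change between the last larval stage and adulthood. Furrow collagens had list medians of 0.55, 0.35 and -0.95 in the wild-type libraries, relative to their mean, and of 2.56 and 3.53 in emr-1(gk119). Molting genes were at 0.11, 0.26 and -0.33 against 0.87 and 1.52. Yolk genes varied far less within each genotype, at 0.04, -0.09 and 0.11 against -3.0 and -3.09, and eggshell genes were at 0.00, 0.02 and 0.03 against -1.12 and -1.12. Thus collagens and molting genes were higher, and yolk, oocyte and eggshell genes lower, in both emr-1(gk119) libraries. Libraries labelled lem-2(tm1582), alone or with emr-1 RNAi, moved the same way. Furrow collagens were at 1.98 and 2.14 in the former and at 3.86 and 3.465 in the latter. Molting genes were at 0.43 and 0.56 and at 1.87 and 1.28. Yolk genes were at -0.89 and -0.84 and at -1.77 and -1.285, and eggshell genes at -0.54 and -0.21 and at -2.48 and -2.32. All samples were labelled young adult, with cultures described as enriched for animals without eggs, stage was not measured apart from these RNAs, and genotype and the stage reached in culture cannot be told apart in these libraries. After renewed quantile normalization of the rows, the median changes were 2.91 for furrow collagens, 0.96 for molting genes, -3.04 for yolk and -1.14 for eggshell genes.

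The 2 emr-1(gk119) libraries differed more than 2-fold for 544 of those 8110 genes, a number within the 205 to 716 of the wild-type pairs, and more than 4-fold for 47, against 44 to 163. Besides spn-4, these included ran-4, at 2.94 and 298 in replicates 1 and 2 against 2.5, 4.33 and 1 in wild type. apc-11 was at 3 and 170.9, but wild type was itself split, at 2, 132.2 and 107.0. Such genes jumped between near 0 and over 100 within a genotype. These 3 genes were chosen after their values were seen, none of them was called, and the cause was not tested.

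The same 2 mutant libraries were then set against those labelled lem-2(tm1582), a deletion allele of the partner LEM-domain gene, grown by the same protocol. In the 9-library fit 146 genes were higher (0.746%) and 70 lower (0.358%) in emr-1(gk119) than in lem-2(tm1582), while a fit on these 4 libraries called 0 in either direction, with 3189 at an unadjusted p below 0.05 (3472 in the 9-library fit). Of the 146, 141 were also higher than in wild type, and of the 70, 62 were also lower, where both comparisons share the emr-1(gk119) libraries. F59C6.18 differed most, by 8.36 (adjusted p = 0.00021), followed by F57G8.7, Y49G5A.1 and K03D3.2. pfd-6, chosen after its values were seen and known as a prefoldin subunit, was at 447.9 and 389.2 in emr-1(gk119), at 3.11 and 6.22 in lem-2(tm1582) and at 6.33, 5.86 and 14.9 in wild type. For yolk, 5 of 7 genes were lower than in lem-2(tm1582), where vit-3 was at 397.8 and 450. In the col family 12 were higher and 2 lower, and 5 of 18 epidermal peptides were higher. No furrow collagen, molting or eggshell gene passed this comparison, and their median differences were 0.96, 0.63 and -0.66. For sarcomere genes the median difference was -0.07 with none called.

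Since a deletion can touch its surroundings, the genes that start within 50 kb of emr-1 were examined. Of 18 such genes tested, 3 were higher and 1 lower in the 9-library fit and none in the 5-library fit, with a median change of 0.26. egl-30, which encodes the Gq alpha subunit that promotes acetylcholine release, ends 479 bases before emr-1 begins. It was at 48.3, 50.5 and 54.9 in wild type and at 66.6 and 95.7 in emr-1(gk119), above all wild-type libraries, with a change of 0.63 ± 0.18 (adjusted p = 0.053). It was at 81.5 and 73.4 in the libraries labelled lem-2(tm1582), which did not pass against wild type either (adjusted p = 0.18). The neuropeptide gene nlp-12, on the other side of emr-1, was at 7.33, 15.7 and 8.39 against 14.4 and 21.2 and did not pass. tag-96, next to it, was at 7.33, 6.44 and 11.2 against 18.2 and 17.3 (1.04 ± 0.24, adjusted p = 0.029, and 0.10 without emr-1(gk119) replicate 1). The chromatin assembly factor gene chaf-2 was at 43.9, 54.7 and 48.7 against 26.2 and 31.6 (-0.75 ± 0.17, adjusted p = 0.026, and 0.092 without emr-1(gk119) replicate 1).

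**Figure D5:**
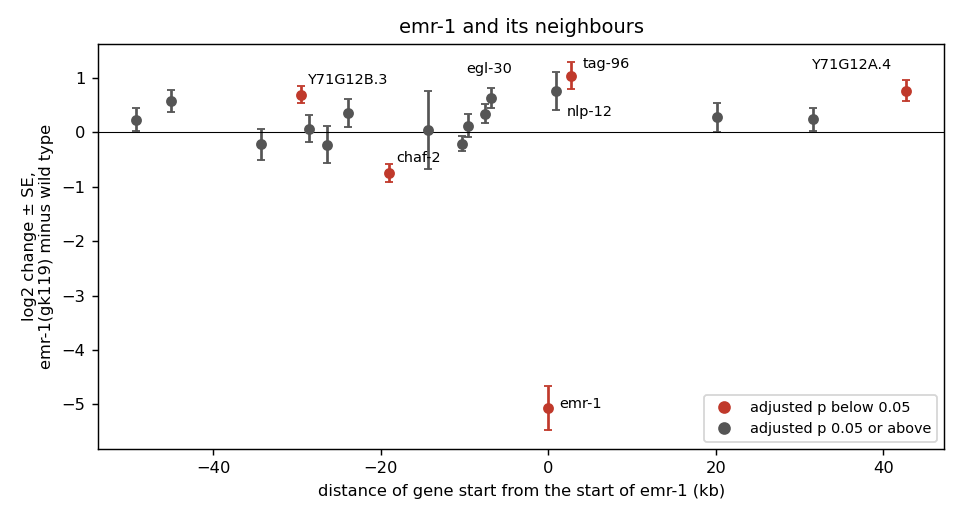
The log2 change of emr-1(gk119) against wild type, with its SE, is plotted against the distance of each tested gene's start from the start of emr-1 in kb. emr-1 stands alone at -5.07, and its 18 neighbours lie between -0.75 and 1.04.

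Calls were spread over all nuclear chromosomes. The share of tested genes that were higher ran from 7.24% on chromosome III to 11.9% on chromosome V, with 10.7% on X, and the share that were lower from 5.35% on IV to 7.28% on II. Protein-coding genes had 10.5% higher and 6.94% lower, and entries annotated as piRNA loci 11.6% and 3.4%, where such short entries often lie inside or beside longer genes.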

How the data were processed

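The authors aligned single-end reads of poly(A) RNA to WS231 with TopHat, sorted them with SAMtools, and deposited coverage: the median depth over each exon, quantile-normalized over the 9 libraries, then the median over a transcript's exons. Versions are not given in the sources used here. Of 49395 rows, 48951 (99.1%) matched the Ensembl annotation of WBcel235, which supplied names and coordinates, and the coverage of a gene is the mean of its rows. Rows or genes with a mean coverage of at least 1 were tested on log2(coverage + 1) with limma 3.58.1 in R 4.3.3, on all 9 libraries with a mean-variance trend, two-sided, with Benjamini-Hochberg adjustment over all genes. The fit was tested on simulated data. Depth per library is unknown.

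The genes named are emr-1 and lem-2, the 10 largest rises and falls among genes called in both fits whose groups do not overlap and whose higher mean is at least 10, genes silent in 1 genotype, up to 4 leading calls per list with members of interest that did not pass, and the neighbours of emr-1. The comparison, members and gene lists were chosen with earlier results of these data known. The alternatives tried were other pseudocounts, coverage minima, libraries, weights, trend, normalization, gene summaries and a replicate block.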

Additional observations from a re-analysis of the deposited data

Results flagged for a closer look

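The change in emr-1(gk119) differed from that in lem-2(tm1582) by a test of the difference itself: 146 genes were higher and 70 lower in emr-1(gk119) than in lem-2(tm1582) in the limma fit over 9 libraries. With only the 4 libraries compared, no gene passed. The groups had 2 or 3 libraries, too few to test any value as an outlier.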

How the results depend on the processing

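Counts of calls depended on how the spread was estimated. Fitted on the 5 compared libraries, 598 transcripts were higher and 296 lower, and 563 and 263 genes. With a library weight for each genotype the counts were 1425 and 658 transcripts and 1188 and 514 genes, and emr-1(gk119) libraries had the lowest weight, 0.61. Leaving out 1 library gave 1294 to 2022 transcripts higher and 742 to 1014 lower, and 1034 to 1689 genes higher and 585 to 814 lower. With the replicate number as a block, 1269 and 450 transcripts and 1058 and 366 genes were called. The labels do not say that a number marks a shared batch, and the deviations of equally numbered libraries of wild type and emr-1(gk119) correlated at -0.13 and -0.04, so the numbers were not taken as a pairing. Against the libraries labelled lem-2(tm1582), 0 genes were higher and 0 lower with the 4 libraries alone, a fit chosen after seeing the data, and leaving out single libraries was not run for that comparison.

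Counts stayed within 1.5 times under the other pseudocounts, coverage minima, normalization, trend and gene summary. None of the 191 named genes tested turned direction while called in any fit, and 96 lost their call in the 5-library fit. Medians of gene lists depended on how low values were treated, on the normalization, on the gene summary and on the library left out. Over all alternatives, they ranged from 0.30 to 1.62 for hedgehog-related, 0.33 to 1.01 for histone, 0.58 to 1.52 for molting, 1.15 to 2.31 for epidermal peptide and 0.10 to 0.31 for muscle calcium genes. Precision is limited by the 2 mutant libraries and by unknown depth.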
